A study of Mus musculus with 9 samples.

Results

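This account covers the small leucine-rich proteoglycans fibromodulin (Fmod), decorin (Dcn), biglycan (Bgn) and lumican (Lum), together with chondroadherin (Chad), tenascin-X (Tnxb), matrilin-2 (Matn2) and cartilage oligomeric matrix protein (Comp), in mouse calf muscle. The 8 genes were chosen by name from matrix genes of tendon and muscle after earlier results of the same arrays were known. In those results Chad and Fmod were among the genes lower in dystrophin-deficient muscle, so the values of mdx against wild-type mice chose at least these genes and are given here without a test. Probe sets were found for 7 of the 8 genes. Comp had no probe set annotated to it here and was not analysed. The 7 genes had 11 probe sets among the 12422 probe sets that are not controls. Of these 11, 9 passed a filter that kept probe sets whose mean was above the 40th percentile. The other 2 were second probe sets of Fmod and Matn2, so all 7 genes were represented.

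Gene expression was measured in gastrocnemius muscle of 9 mice, each on its own Affymetrix U74Av2 array. Wild-type mice (n = 2), of mixed C57Bl/DBA2/129OLA-Ev background, were a female and a male of 7 weeks. The mdx mice (n = 2, male, 15 and 13 weeks for mdx 1 and mdx 2) carry a mutation in Dmd and lack dystrophin, which ties the cytoskeleton of the fibre to its membrane and matrix. The hDMD mouse (n = 1, male, 11 weeks) carried the full-length human dystrophin gene beside its own. The hDMD mdx mice (n = 2, male, 24 and 10 weeks) carried the human gene on the mdx mutation. The mdx utrn-/- mouse (n = 1, male, 5 weeks) lacked both dystrophin and utrophin, a related protein, and the hDMD mdx utrn-/- mouse (n = 1, male, 9 weeks) carried the human gene on that double deficiency. Both wild-type mice were younger than the mdx, hDMD, hDMD mdx and hDMD mdx utrn-/- mice, so age and genotype cannot be told apart in those comparisons. The strain background of the other genotypes was not given in the labels.

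Small leucine-rich proteoglycans are secreted proteins that bind collagen fibrils and set how fibrils form and pack. Decorin and biglycan also bind transforming growth factor beta, and biglycan is known to bind parts of the dystrophin-associated complex at the muscle membrane. Fibromodulin and lumican are abundant in tendon and other dense connective tissue, chondroadherin is a leucine-rich cell-binding protein of cartilage and tendon, tenascin-X is a large collagen-associated glycoprotein, and matrilin-2 is an adaptor protein that forms filaments in loose matrix and around basement membranes.

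Levels are deposited intensities, quantile normalised across the 9 arrays and given as log2(intensity + 16), which puts the floor at 4. Differences between genotypes are on this scale too, with the SE of the limma fit, and understate the change of dim genes. Hybridisation spike-in controls divided the arrays into 3 bright ones (wild-type 1, mdx 2 and hDMD mdx 1), with medians of 206 to 225, and 6 dim ones, with medians of 28.5 to 42.3. The ratio of 3' to 5' actin probe sets, a sign of RNA quality, was 1.20 to 1.87 in the former and 0.669 to 0.908 in the latter. All 12 fast muscle fibre genes examined were at or above the 97.3th percentile of probe sets in every array. The precision is limited by the number of arrays, and in whole muscle fewer cells of a type and less RNA per cell cannot be told apart.

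Fmod (Entrez 14264) varied most of the 7 genes. Its level was 8.41 and 7.63 in wild-type 1 and 2, 6.68 and 7.13 in mdx 1 and 2, and 6.56 in mdx utrn-/-. With the human gene it was 5.03 in hDMD, 7.60 and 6.97 in hDMD mdx 1 and 2, and 5.17 in hDMD mdx utrn-/-. Both wild-type mice were above every other mouse, wild-type 2 only just above hDMD mdx 1, while the hDMD and hDMD mdx utrn-/- mice lay more than a full log2 unit below all the rest. The standard deviation of Fmod over the 9 arrays was larger than that of 98.3% of the 7453 kept probe sets. Between mice of the same genotype, where each pair held a bright and a dim array, it was 0.45. In the order of genotype means, the successive steps from hDMD mdx (7.29) to mdx (6.91) to mdx utrn-/- (6.56) were less than that. The step from hDMD mdx utrn-/- to hDMD was also less than 0.45. The other Fmod probe set ranged from the floor to 4.43 and did not pass the filter.

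Chad (Entrez 12643) was also highest in the wild-type mice. It was 7.34 and 6.22 in wild-type 1 and 2, 4.47 and 5.23 in mdx 1 and 2, and 5.57 in mdx utrn-/-. It was 4.85 in hDMD, 6.09 and 5.21 in hDMD mdx 1 and 2, and 5.60 in hDMD mdx utrn-/-. Wild-type 2 stood only just above hDMD mdx 1, and the lowest value was that of mdx 1. Its standard deviation was larger than that of 93.7% of kept probe sets.

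Bgn (Entrez 12111), which lies on chromosome X, followed another order. It was 8.15 and 8.31 in wild-type 1 and 2, 8.47 and 8.56 in mdx 1 and 2, and 7.92 in mdx utrn-/-. It was 7.09 in hDMD, 7.63 and 7.04 in hDMD mdx 1 and 2, and 7.24 in hDMD mdx utrn-/-. All 4 carriers of the human gene were below all 5 mice without it, and the mdx mice were the highest. The other Bgn probe set ranged from 5.81 in hDMD mdx 1 to 6.93 in mdx utrn-/-, and there carriers and non-carriers overlapped.

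Lum (Entrez 17022) was 5.95 and 6.75 in wild-type 1 and 2, 5.97 and 6.90 in mdx 1 and 2, and 5.73 in mdx utrn-/-. It was 6.22 in hDMD, 5.59 and 5.63 in hDMD mdx 1 and 2, and 5.00 in hDMD mdx utrn-/-. The mice of a genotype spread widely, and the 3 lowest mice all carried both the human gene and the mdx mutation. Dcn (Entrez 13179) was nearly level, from 10.13 in hDMD to 10.61 in wild-type 2. That range of 0.49 over 9 mice went with a standard deviation larger than that of only 1.44% of kept probe sets.

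Tnxb (Entrez 81877) had a pair of kept probe sets. The brighter ranged from 5.69 in hDMD mdx 2 to 6.75 in wild-type 2, and the other from 4.86 in mdx utrn-/- to 7.30 in wild-type 2. On both, the wild-type mice were the highest, though on the other probe set wild-type 1 (6.60) was only just above hDMD mdx 1 (6.54). Matn2 (Entrez 17181) stayed near the floor, from 4.21 in hDMD mdx 2 to 5.29 in hDMD mdx utrn-/-, and its other probe set, which reached 4.19 at most, did not pass the filter.

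**Figure D1:**
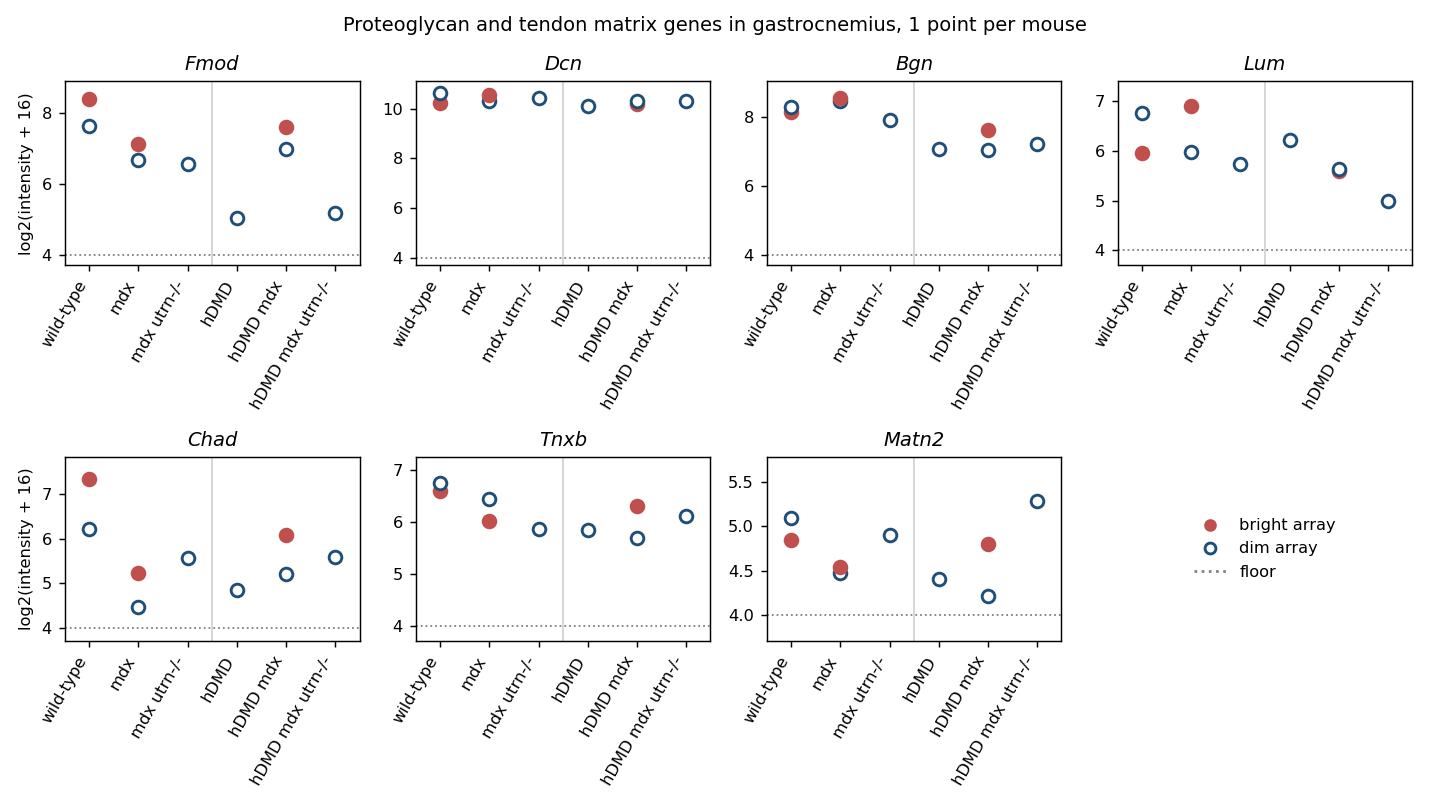
Level of each gene as log2(intensity + 16) in each of the 9 mice, 1 panel per gene with its own vertical scale, grouped by genotype with carriers of the human gene right of the vertical line; filled points are bright arrays, open points dim ones, and the dotted line is the floor of 4. Wild-type mice have the highest Fmod, Chad and Tnxb, all 4 carriers lie below all non-carriers for Bgn, and Dcn is nearly level.

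Promoter sequence was at hand for 4 of the 8 genes, and is shown for the 3 genes that differed most between genotypes, because Fmod and Chad were lower in mdx than in wild-type mice and Bgn was not. Each is the 250 bases before the annotated start, plus strand, from RefSeq on GRCm38.p6: chr1:134037004-134037253 for Fmod, chr11:94564797-94565046 for Chad and chrX:73483351-73483600 for Bgn. Capitals mark every match, on either strand, to a SMAD element (CAGAC), an E-box (CANNTG) and a TATA box (TATAAA).
Fmod: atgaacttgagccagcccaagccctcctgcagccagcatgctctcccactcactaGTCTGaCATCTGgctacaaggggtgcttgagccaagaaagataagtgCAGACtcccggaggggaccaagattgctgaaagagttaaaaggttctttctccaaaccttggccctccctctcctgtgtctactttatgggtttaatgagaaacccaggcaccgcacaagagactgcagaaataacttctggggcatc
Chad: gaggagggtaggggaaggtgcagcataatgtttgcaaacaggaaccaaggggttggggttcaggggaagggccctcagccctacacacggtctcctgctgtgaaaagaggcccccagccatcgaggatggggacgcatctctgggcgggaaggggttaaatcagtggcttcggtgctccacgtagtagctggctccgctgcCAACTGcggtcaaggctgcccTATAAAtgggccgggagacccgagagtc
Bgn: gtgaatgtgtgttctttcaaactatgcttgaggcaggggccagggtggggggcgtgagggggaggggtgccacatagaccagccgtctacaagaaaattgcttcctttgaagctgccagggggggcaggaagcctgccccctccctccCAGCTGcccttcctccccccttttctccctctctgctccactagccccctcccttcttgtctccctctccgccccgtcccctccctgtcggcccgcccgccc
The Fmod window held 2 SMAD elements, beginning 195 and 148 bases before the start, and 1 E-box. The Chad window held no SMAD element, 1 E-box beginning 49 bases before the start and a TATA box beginning 28 bases before it. The Bgn window held 1 E-box, beginning 102 bases before the start, and neither of the others. The window of Tnxb, a gene also lower in mdx and not shown here, held 2 SMAD elements, 1 E-box and no TATA box. No match overlapped a match to another motif. Of 32851 promoters of the same length, 42.19% held the SMAD element, 66.22% the E-box and 12.37% the TATA box, so these letters are common and describe the windows only.

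The first comparison asked what loss of mouse dystrophin did to these genes, with 2 mdx and 2 wild-type mice. Chad was lower in mdx, at 4.85 against 6.78 in wild-type, a difference of -1.93 ± 0.53 (SE) or 3.80-fold on this scale. Fmod differed by -1.11 ± 0.43, from 8.02 to 6.91. Differences were smaller for Matn2, at -0.46 ± 0.35, and for Tnxb, at -0.45 ± 0.37 on the brighter and -0.76 ± 0.46 on the other probe set. The remaining proteoglycans did not share this: Bgn differed by 0.29 ± 0.35, Lum by 0.08 ± 0.45 and Dcn by 0.02 ± 0.33, each less than its SE.

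Over the 7 genes the median difference was -0.45, with 3 higher and 4 lower in mdx, against a median of 0.00 over all kept probe sets. Both mdx mice were below both wild-type mice for Chad, Fmod, Tnxb and Matn2, 4 of 7 genes, and this held for 10.7% of kept probe sets. No test is given for these members because values of this contrast chose them. In limma 0 of 7453 probe sets (0%) had an adjusted p under 0.05, and 130 had an unadjusted p under 0.05. Without wild-type 1, the female, the difference of Chad was -1.36 and that of Fmod -0.72. Without wild-type 2 they were -2.49 and -1.50.

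The order of the 3 genotypes with a bright and a dim array was the same at both brightnesses for Chad, Fmod and Bgn. Within the bright arrays Chad was 7.34 in wild-type, 6.09 in hDMD mdx and 5.23 in mdx, and within the dim arrays 6.22, 5.21 and 4.47. Fmod had the same order in both, at 8.41, 7.60 and 7.13 among bright arrays and 7.63, 6.97 and 6.68 among dim ones. Bgn was highest in mdx and lowest in hDMD mdx in both. Each of these points is 1 mouse. The values of mdx against wild-type mice chose Chad and Fmod, so wild-type above mdx in these genes is no separate result. The share of all kept probe sets with the same order at both brightnesses was not computed, so nothing is read from the number of genes. For Lum, Dcn, Tnxb and Matn2 the order differed between the bright and the dim arrays.

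**Figure D2:**
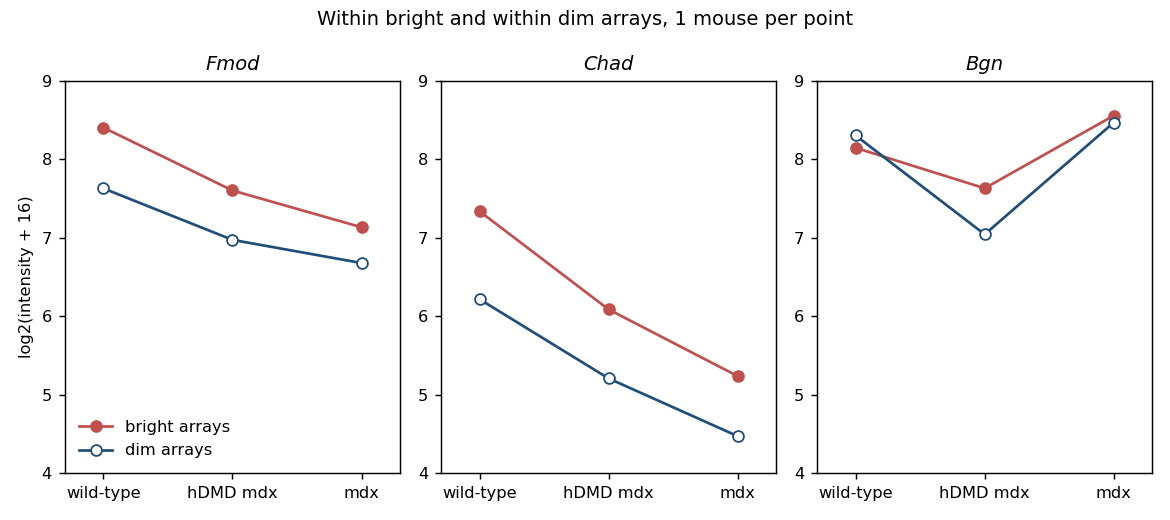
Level as log2(intensity + 16) of Fmod, Chad and Bgn in wild-type, hDMD mdx and mdx muscle, drawn separately for the 3 bright (filled) and 3 dim (open) arrays of these genotypes, 1 mouse per point; lines join arrays of the same brightness. Fmod and Chad, which were chosen from values of mdx against wild-type mice, descend from wild-type through hDMD mdx to mdx in both. Bgn is lowest in hDMD mdx in both.

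Markers of other cells differed in this comparison as well. The summed intensity of 6 tendon cell markers was 443 in wild-type 1, 160 in wild-type 2 and 115 to 167 in the mdx mice, and none of the 6 was at the floor in every array. The highest sum, in wild-type 1, went with the highest Fmod and Chad. Wild-type 2 had the next highest Fmod and Chad with a tendon marker sum inside the mdx range. Cilp2, a cartilage intermediate layer protein, made up 322 of the sum in wild-type 1. Of the 4 kept tendon markers, Cilp2 differed by -1.45 in mdx minus wild-type, the tendon transcription factor Scx (scleraxis) by -0.29, the collagen Col12a1 by -0.02 and the early response factor Egr1 by 0.36. Sums of 9 cartilage markers were 42.3 to 50.7 in wild-type and 33.0 to 36.5 in mdx mice. Macrophage markers (14 genes) summed to 327 and 1724 in the wild-type and 1562 to 2264 in the mdx mice, and regenerating muscle markers (10 genes) to 258 to 610 and 1309 to 1833. Adipocyte markers were lower in mdx in 8 of 8 kept genes, with a median of -0.72. Fibroblast markers were lower in 8 of 11, with a median of -0.23. Adipocyte marker sums were 1973 in wild-type 1, 7494 in wild-type 2 and 1575 to 2605 in the mdx mice, so wild-type 1 lay in the mdx range. The part of all these markers in the differences of Fmod and Chad was not tested.

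The next comparison set mice carrying the human gene against wild-type mice, as the mean of the 3 genotype means (hDMD, hDMD mdx and hDMD mdx utrn-/-) minus the wild-type mean. Every carrier was older than both wild-type mice, so age and the human gene cannot be told apart here. All 7 genes were lower in carriers by this mean, though single carriers and wild-type mice overlapped for Lum, Matn2 and Dcn. Fmod differed by -2.19 ± 0.38, or 4.56-fold, Chad by -1.41 ± 0.47, or 2.66-fold, and Bgn by -1.004 ± 0.31, or 2.01-fold. Lum differed by -0.74 ± 0.40, Tnxb by -0.69 ± 0.33 on the brighter and -1.03 ± 0.41 on the other probe set, Matn2 by -0.24 ± 0.31 and Dcn by -0.19 ± 0.29. The other Bgn probe set differed by only -0.22 ± 0.28. Without wild-type 2 the difference of Dcn was 0.00102 and that of Lum -0.34, and without wild-type 1 that of Chad was -0.85.

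None of the 7 genes passed in limma, where 0 of 7453 probe sets (0%) had an adjusted p under 0.05. An unadjusted p under 0.05 was reached by Fmod, Chad and Bgn, 3 of the 7 genes, beside 3.38% of kept probe sets (252). The wild-type arrays are those that chose Fmod and Chad, so single p-values are left out and nothing is read from this count. The median difference of the 7 genes was -0.74, against 0.01 over all kept probe sets. All 4 carriers were below both wild-type mice for Fmod, Chad, Bgn and Tnxb, 4 of 7 genes, beside 4.25% of kept probe sets, and the same limit holds for that count.

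The carriers were not at 1 level. Fmod was lower than in wild-type by 2.98 in the hDMD mouse and by 2.85 in the hDMD mdx utrn-/- mouse, but only by 0.73 in the hDMD mdx mice. For Chad the differences were -1.93, -1.18 and -1.13 in the same order, and for Bgn -1.13, -0.99 and -0.89. The other Bgn probe set differed by -0.33, 0.05 and -0.38, and differences between carrier genotypes were not tested. The SE of the fit holds the spread between mice of the same genotype, with array brightness mixed in, and not that between carrier genotypes. The difference of Fmod was -0.80 within the bright arrays, which hold a single carrier, and -1.90 within the dim arrays, and that of Bgn was -0.52 and -1.18. Adipocyte markers were lower than in wild-type in 8 of 8 kept genes (median -0.58) and fibroblast markers in 10 of 11 (median -0.77). Macrophage markers were lower in 12 of 12 (median -0.74). Tendon cell markers were divided, 2 higher and 2 lower (median -0.28), and 2 of 2 cartilage markers were higher (median 0.11). Adipocyte sums were 1973 and 7494 in wild-type 1 and 2 and 1202 to 3701 in carriers. Macrophage sums were 327 and 1724 in wild-type 1 and 2 and 317 to 476 in carriers. Wild-type 1 thus lay in the carriers' range for both. The part of these markers was not tested.

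**Figure D3:**
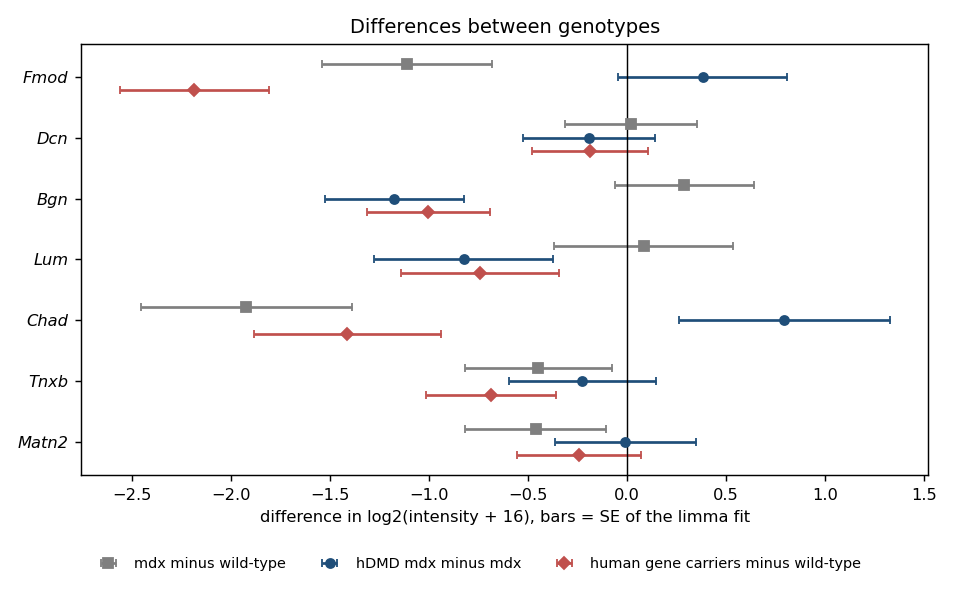
Difference in log2(intensity + 16) for each gene in mdx minus wild-type (squares, no test), hDMD mdx minus mdx (circles) and carriers of the human gene minus wild-type (diamonds), with bars of 1 SE from the limma fit. The mean of the carrier genotypes is below wild-type for all 7 genes, though single mice overlap for Lum, Matn2 and Dcn. Bgn and Lum are the lowest of the 7 in hDMD mdx relative to mdx while Chad and Fmod are above 0.

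The human gene on the dystrophin-deficient background was examined in 2 hDMD mdx against 2 mdx mice. Bgn was lower with the human gene by 1.18 ± 0.35, or 2.26-fold, with an unadjusted p of 0.0124 and an adjusted p of 1 in limma. Its other probe set differed by -0.50 ± 0.32. Lum differed by -0.83 ± 0.45, and by -1.29 without mdx 1 and -0.36 without mdx 2, whereas Chad differed by 0.79 ± 0.53 and Fmod by 0.38 ± 0.43. Tnxb, Dcn and Matn2 differed by -0.23, -0.19 and -0.01, each less than its SE. In limma 0 of 7453 probe sets (0%) passed, and 2.88% (215) had an unadjusted p under 0.05, as had 1 of the 7 genes. With brightness as a block the SE of Chad was 0.24 in place of 0.53 and that of Bgn 0.28, and both had an unadjusted p under 0.05, 2 of 7 genes beside 7.29% of kept probe sets. The mdx arrays are those that chose Chad, so no p is given for it and nothing is read from these counts.

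With the utrophin-deficient pair added, 3 carriers were set against 3 non-carriers with utrophin genotype as a term. Bgn differed by -1.01 ± 0.30, with an unadjusted p of 0.0100 and an adjusted p of 0.646 in limma. Lum differed by -0.79 ± 0.32, with an unadjusted p of 0.0408 and an adjusted p of 0.869 in limma. For both genes all carriers were below all non-carriers, 2 of 7 genes beside 5.3% of kept probe sets, and the other Bgn probe set differed by -0.52 ± 0.26. The mdx arrays here are also those of mdx minus wild-type. Chad differed by 0.54 ± 0.38, Fmod by -0.21 ± 0.43, Dcn by -0.16 ± 0.26, Matn2 by 0.12 ± 0.29 and Tnxb by -0.06 ± 0.31. The other Tnxb probe set differed by 0.22 ± 0.39. Here 2 of 7 genes had an unadjusted p under 0.05, against 5.49% of kept probe sets (409), and 0 of 7453 (0%) passed after adjustment in limma. The Bgn difference was -0.93 on bright arrays and -1.05 on dim ones, and the Lum difference -1.31 and -0.53. Marker sums differed between the same mice: macrophage markers summed to 317 to 476 in the 3 carriers and 1210 to 2264 in the 3 others, with 12 of 12 kept genes lower and a median of -1.51. Regenerating muscle markers summed to 308 to 395 and 1309 to 2734, with 10 of 10 lower and a median of -1.26. Their part in the differences of Bgn and Lum was not tested.

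Across all genotypes Bgn was 7.25 ± 0.27 (SD, n = 4) in carriers and 8.28 ± 0.26 (SD, n = 5) in mice without the human gene. The gap between the highest carrier and the lowest other mouse was 0.29. A full separation with carriers lower held for 1 of the 7 genes and for 1.09% of kept probe sets (81), and 15 of those 81 had a gap at least as wide. This division was noticed in the values of Bgn and has no test. The summed intensity of 12 fibroblast markers divided the mice in the same way, at 1556 to 1789 in carriers and 2197 to 4836 in the others. That division rested on Col1a1, Col1a2 and Col3a1: the other 9 markers summed to 624 to 1132 in carriers and 840 to 1972 in the others, which overlap. Macrophage marker sums were 317 to 476 in carriers and 327 to 2264 in the others, and of the others only wild-type 1 lay in the carriers' range. The part of the fibroblast markers in the Bgn difference was not tested.

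Full-length dystrophin, mouse or human, was compared by setting the 3 mice without it (mdx and mdx utrn-/-) against the 6 with it. Bgn was 8.32 without and 7.58 with dystrophin, a difference of 0.74 ± 0.33. Its other probe set differed by 0.45 ± 0.22. There the 3 mice without dystrophin were at 6.42 to 6.93 and the 6 with it at 5.81 to 6.41, while on the brighter probe set the classes overlapped. How many kept probe sets divide the mice in this way was not counted, so nothing is read from it. Chad differed by -0.79 ± 0.48, Lum by 0.34 ± 0.38 and Fmod by -0.01 ± 0.68. Dcn, Matn2 and Tnxb differed by 0.14, -0.13 and -0.11, and the other Tnxb probe set by -0.53 ± 0.42. In limma 9 probe sets (0.121%) passed, none of them a member, and 416 (5.58%) had an unadjusted p under 0.05, as had Bgn, 1 of the 7 genes. The mdx and wild-type arrays that chose the genes are part of this comparison, so nothing is read from that count. On the brighter Bgn probe set the class with dystrophin joins the wild-type mice, at 8.15 and 8.31, with carriers at 7.04 to 7.63.

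Loss of utrophin on the deficient backgrounds was read from the same fit as the human gene, with 2 mice lacking utrophin and 4 with it. The 2 mice were 5 and 9 weeks old and the 4 others 10 to 24 weeks. Age and utrophin genotype thus cannot be told apart here. Fmod differed by -1.23 ± 0.46, with an unadjusted p of 0.0290 and an adjusted p of 0.740 in limma. The difference was -2.12 between hDMD mdx utrn-/- and hDMD mdx mice but -0.34 between mdx utrn-/- and mdx mice, so it rested on 1 mouse. Lum differed by -0.66 ± 0.34, Matn2 by 0.59 ± 0.31, Bgn by -0.35 ± 0.31, Chad by 0.34 ± 0.40, Tnxb by -0.13 ± 0.33 and Dcn by 0.03 ± 0.28. The other Bgn probe set went the opposite way, at 0.46 ± 0.28, and the other Tnxb probe set differed by -0.77 ± 0.42. Both mice lacking utrophin had more Matn2 than the 4 others, 1 of 7 genes beside 7.15% of kept probe sets, and less Fmod, 1 of 7 beside 9.18%. Both were dim arrays, and with brightness as a block Fmod differed by -0.96 ± 0.48, with an unadjusted p of 0.0885 and an adjusted p of 0.779 in limma. With the block Matn2, at 0.75 ± 0.29, and Chad, at 0.75 ± 0.31, had an unadjusted p under 0.05 in its place, 2 of 7 genes beside 6.86% of kept probe sets. In limma 0 of 7453 probe sets (0%) passed, and 5.9% (440) had an unadjusted p under 0.05, as had 1 of the 7 genes. The mdx arrays that chose Fmod and Chad are among the 4 with utrophin, so nothing is read from these p-values or counts.

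Whether the human gene differed in effect between backgrounds was taken as hDMD mdx minus mdx, less hDMD minus wild-type. For Fmod this was 3.37 ± 0.68 and for Chad 2.72 ± 0.84, given without a p because the low mdx and high wild-type values that chose these genes enter it. Both genes were lower in the hDMD mouse than in wild-type mice. In hDMD mdx minus mdx Chad differed by 0.79 ± 0.53 and Fmod by 0.38 ± 0.43, and the mice overlapped for both. In the utrophin-deficient pair, 1 mouse each, Fmod differed by -1.40 with the human gene and Chad by 0.02. The difference between backgrounds was 0.61 for Tnxb (brighter probe set), 0.56 for Matn2, 0.10 for Dcn, -0.04 for Bgn and -0.69 for Lum. Each difference between backgrounds rests on 1 hDMD mouse.

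Other genes of the same matrix were described from 7 lists drawn up with earlier results known. No gene of these lists passed in any comparison in limma. Of 13 kept fibril collagens and binding partners, 11 were lower in carriers than in wild-type mice, with a median of -0.77. Fibronectin (Fn1) differed by -1.71 ± 0.36, and the type I collagen chains Col1a1 by -1.55 ± 0.30 and Col1a2 by -1.36 ± 0.43. In mdx minus wild-type the median of the 13 was 0.08, with 7 higher and 6 lower, and the same 3 genes differed by -0.19, -0.23 and -0.39. On deficient backgrounds 12 of 13 were lower with the human gene, with a median of -0.93. All carriers were below all other mice for 7 of the 13, beside 1.09% of kept probe sets: Col1a1, Col1a2, Col5a2, Col6a2, Col6a3, Fn1 and Eln. The fibroblast markers and this list share Col1a1, Col1a2 and Col3a1.

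Enzymes of collagen maturation were lower in carriers in 10 of 10 genes, with a median of -0.62. The largest differences were in protein disulfide isomerase P4hb (-1.46 ± 0.55, at the floor in 3 arrays), lysyl oxidase Lox (-1.24 ± 0.39) and the prolyl hydroxylase subunit P4ha2 (-1.19 ± 0.37). In mdx minus wild-type 7 of the 10 were lower, with a median of -0.36, P4hb at -2.04 ± 0.62 and P4ha2 at -1.18 ± 0.42. Of the other small leucine-rich proteoglycans only osteoglycin (Ogn) was kept, at -0.63 ± 0.44 in mdx and -0.87 ± 0.39 in carriers relative to wild-type. Tenascin-C (Tnc) and thrombospondin 2 (Thbs2), the 2 kept genes of their list, differed by -0.81 ± 0.35 and -0.68 ± 0.41 in carriers, and by -0.03 and -0.50 in mdx.

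The transforming growth factor beta list, 12 kept genes, was divided, with 6 higher and 6 lower in carriers and a median of -0.06. Connective tissue growth factor (Ccn2) differed by -1.48 ± 0.54 in carriers and -0.82 ± 0.61 in mdx, periostin (Postn) by -0.93 ± 0.40 and 0.89 ± 0.45, and the inhibitory Smad7 by -0.77 ± 0.39 and -0.91 ± 0.44. Among 6 kept enzymes of proteoglycan synthesis, with a median of -0.26 in carriers, the sulfate donor synthase Papss1 differed by -0.78 ± 0.41 in carriers and -1.09 ± 0.46 in mdx. The linkage-region galactosyltransferase B3galt6 was the one higher in carriers, at 0.75 ± 0.41, and Ugdh, which makes UDP-glucuronic acid, differed by -0.57 ± 0.41. Of 6 kept proteases and inhibitors 5 were lower in carriers, with a median of -0.66. The metalloproteinase inhibitor Timp1 differed by 1.89 ± 0.69 in mdx and -0.01 ± 0.61 in carriers, stromelysin Mmp3 by 0.83 ± 0.50 and -0.67 ± 0.44, and Timp2 by -0.81 ± 0.65 and -0.66 ± 0.57.

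**Figure D4:**
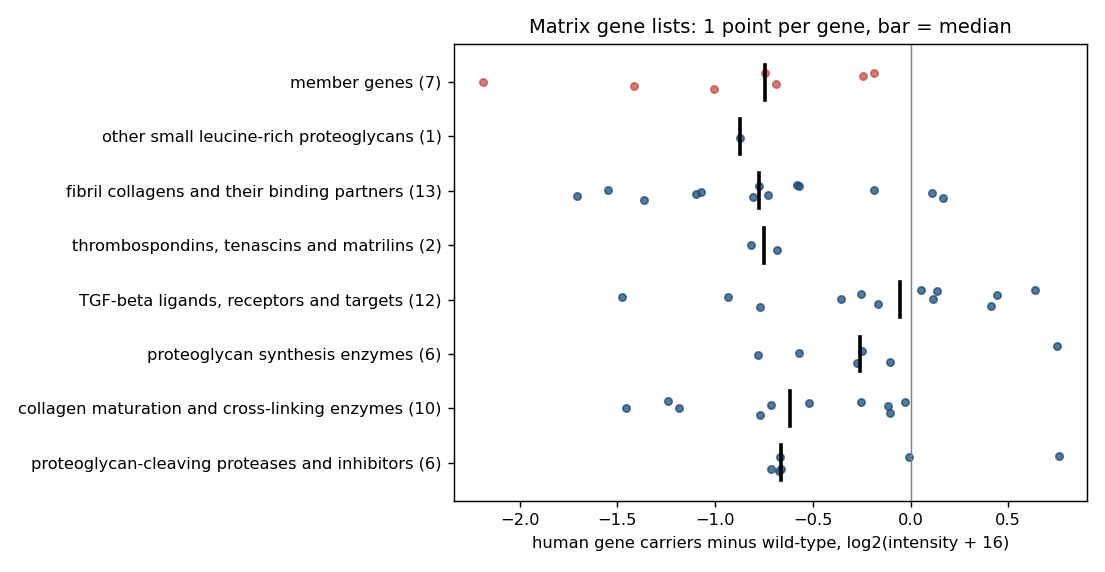
Difference between carriers of the human gene and wild-type mice in log2(intensity + 16), 1 point per kept gene, for the 7 genes (top) and 7 lists of related matrix genes, with the number of kept genes in parentheses and a bar at the median. The medians are -0.74 for the 7 genes, -0.77 for fibril collagens, -0.62 for maturation enzymes and -0.06 for the transforming growth factor beta list.

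The profile of the 7 genes together was taken as their mean deviation from their own means. It was 0.58 and 0.56 in the wild-type mice, -0.09 and 0.21 in mdx 1 and 2, and -0.07 in mdx utrn-/-. In carriers it was -0.56 in hDMD, 0.11 and -0.34 in hDMD mdx 1 and 2, and -0.39 in hDMD mdx utrn-/-. The wild-type mice were thus highest and hDMD lowest. Fmod and Chad, chosen from values of mdx against wild-type mice, are part of this mean. Nothing is therefore read from the place of the wild-type and mdx mice in it. The genes nearest to this profile, by root mean square difference over the 9 arrays, were Rpn2 at 0.145, Sh3d19 at 0.164, Cd34 at 0.170, Etnk1 at 0.192 and Chaf1b at 0.200. The median over all other genes was 0.538, and genes that vary little are near by this measure too.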

How the data were processed

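Total RNA from frozen gastrocnemius was purified with Trizol and RNeasy, reverse transcribed with SuperscriptII and labelled as biotin cRNA with an Enzo kit, per the labels' protocols. The authors deposited linear probe set intensities, of which 19.4% to 29.9% per array were at or below 0. Measure, software and scaling are not stated in the sources used here. From these deposited intensities, values were quantile normalised on the linear scale, set to at least 0, increased by 16 and put on a log2 scale. Of 12422 probe sets that are not controls, 7453 had a mean above the 40th percentile and were kept. Symbols came from the platform annotation, updated by Entrez identifier, and a gene was represented by its probe set with the highest mean.

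Genotype means were fitted over all 9 arrays with limma 3.58.1 in R 4.3.3, and the spread came from the 3 genotypes with 2 mice (3 degrees of freedom). Single-mouse genotypes were taken to vary alike. The human gene and utrophin on deficient backgrounds were fitted on 6 arrays, and the dystrophin classes on all 9 in 2 groups (7 degrees of freedom). Tests were two-sided with Benjamini-Hochberg adjustment over 7453 probe sets at a threshold of 0.05, and the fit was tested on simulated data. Each genotype with 2 mice had a bright and a dim array. Nothing says how mice were related, so p-values measure the spread between these arrays. Mouse and brightness are mixed in that spread unless brightness was a block. All members, the gene lists and their tests were chosen with earlier results of these data known. Every member probe set is accounted for, up to 3 genes per list with the largest difference in mdx or carriers relative to wild-type are named, and the 5 genes nearest to the members' profile. Alternatives were another scaling, pseudocounts of 1 and 64, no filter, a block for brightness, dim or bright arrays alone, another variance model, age as a covariate, the mean of probe sets, and each mouse left out.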

Additional observations from a re-analysis of the deposited data

How the results depend on the processing

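No count of members passing in limma changed: it was 0 in each of the 6 comparisons fitted beside mdx minus wild-type, under every alternative in which limma was fitted. Bright arrays alone, and dim arrays alone where limma could not be fitted, gave differences of means without a count. The median difference of the 7 genes in mdx minus wild-type, -0.45, was -0.167 with a pseudocount of 64 and -0.745 with age as a covariate. In hDMD mdx minus mdx it was -0.19, 0.250 in the bright arrays only, an alternative chosen after seeing the data, and -0.302 to 0.0799 with a mouse left out. In dystrophin-lacking minus dystrophin-carrying it was -0.01 and -0.277 in the bright arrays only. In carriers minus wild-type it was -0.74, -1.02 with a pseudocount of 1, -0.428 with a pseudocount of 64 and -0.999 in the dim arrays only. The difference in the human gene's effect between backgrounds, with alternatives chosen after seeing the data, had a median of 0.56, 0.299 after 75th percentile scaling, 0.205 with a pseudocount of 64 and 0.271 to 0.856 with a mouse left out. The cause of these shifts was not tested. In mdx minus wild-type, Chad ranged from -2.87 to -1.05 and Fmod from -1.50 to -0.72 over 19 alternatives. In carriers minus wild-type, over 18 alternatives, Fmod ranged from -2.70 to -1.47 and Bgn from -1.22 to -0.61. On deficient backgrounds Bgn with the human gene ranged from -1.18 to -0.77 over 15 alternatives. The human gene's effect between backgrounds was not run with dim arrays only or without the hDMD mouse. A block of replicate numbers was not fitted, since the labels carry none, and brightness served as the block. Dim signal near the floor limits Matn2.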
